A study of Homo sapiens with 12 samples.

Results

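The 44 genes described here encode the actin cytoskeleton and the focal adhesions, the machinery by which a cell holds its shape, pulls on its surroundings and grips the matrix. They were taken by symbol, 44 of the 29035 genes in the count table, of which 15871 are protein-coding. The list was chosen with earlier results of these data known, so its counts beside those of all genes are description and no test of the set. Of these 44, 3 are actins, 16 are contractile genes, 6 are actin cross-linkers, 14 are adhesion genes, 2 act in filament turnover and 3 link actin to the membrane. A549, a human lung carcinoma line with epithelial features, was treated with 4 ng/mL TGFβ, a cytokine that induces epithelial-to-mesenchymal transition (EMT). Cells were harvested at 0 h (the untreated start, although its label also names TGFβ), 0.5 h, 12 h, 24 h, 48 h and 96 h, and medium with TGFβ was renewed during the course. Each time had 2 libraries of 384 single sorted cells made by CEL-Seq2, which counts mRNA molecules by a unique molecular identifier (UMI) at the 3′ end. Untreated libraries of the later times were not analysed here, so time in culture and time in TGFβ cannot be told apart. Whether the replicates were separate cultures is not stated in the labels, and the spread behind each p-value may therefore be technical alone.

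Actin filaments are built from actin monomers, pulled by myosin II, decorated by tropomyosin, caldesmon and calponin, and bundled by α-actinin, filamin and fascin. Their ends are anchored at focal adhesions, where talin, kindlin, vinculin, paxillin, tensin and zyxin couple integrins to the filaments. Cells in EMT are known to exchange a cortical, junction-bound actin ring for stress fibers and larger adhesions, and many genes of this machinery are read by serum response factor (SRF) with its actin-sensing partners MRTFA and MRTFB.

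After limits on UMIs, detected genes and mitochondrial share, 1871 of 4608 wells were kept, with 54 to 217 cells and 1264044 to 4500036 protein-coding UMIs per library. The 96 h libraries were the smallest, with 54 and 64 cells, so their values carry the most counting error. At every time replicate 1 carried one barcode set and replicate 2 the other, and the sets shared 0 barcodes, so number and set cannot be told apart. The epithelial keratins KRT8, KRT18 and KRT7 averaged 1134, 1424 and 2392 CPM (counts scaled to a library total of 1e+06) at 0 h. By 96 h, CDH1 (E-cadherin) had 0 and 2 UMIs, against 143 and 113 at 0 h. At that time 4 of the 6 epithelial markers had fallen, where 11.1% of all genes tested fell. KRT7 went the other way, with 5622 and 4816 CPM at 12 h and 4774 and 3624 CPM at 48 h, against 2393 and 2392 CPM at 0 h. It rose at 12 h (1.12 ± 0.17, adjusted p = 2.76e-05), 24 h and 48 h and had no call at 96 h (0.41 ± 0.17, adjusted p = 0.077). Of markers of other cells, PECAM1 and CDH5 (endothelium) had at most 1 UMI per library, PTPRC (immune cells) 0 and ACTG2 (smooth muscle) at most 2. CD79A (immune cells) had at most 4 and was seen at every time. From the smooth muscle and pericyte list, LMOD1 had at most 1, PLN at most 2 and RGS5 at most 6. SYNPO2, from the smooth muscle and pericyte list, was present at the start and fell, with 4 and 3 UMIs at 96 h, against 56 and 40 at 0 h (adjusted p = 0.000893). Of the 5 fibroblast markers, LUM (lumican) was the 1 tested. It had 8 and 6 UMIs at 48 h and 5 and 3 at 96 h, against 1 and 0 at 0 h, and was called as risen at both times (adjusted p = 0.0151 and 0.0231). DCN and COL3A1 had at most 1 UMI in any library, PDGFRA at most 4 and THY1 at most 8. The part of these markers in the changes below was not tested. Some listed markers had no row among the protein-coding genes of the count table and could not be checked. These were MYH11 and DES (smooth muscle), VWF, CLDN5 and KDR (endothelium), and CD3E, CD68 and LYZ (immune cells).

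Serum response factor binds a sequence named the CArG box, so the promoters of the 44 genes were searched for it first. The windows were the 250 bases before and 50 after each RefSeq start (GRCh38.p14), on both strands, and 38 of the 44 genes had an entry. ACTB, TAGLN, MYL9, PTK2, PARVA and FSCN1 were not searched. A CArG box lay in 5 of 66 windows of these genes (7.58%), against 454 of 35116 windows of all genes (1.29%). The 5 windows are shown because their genes come from 3 roles and ran through 4 different time courses, given below. Each holds its CArG box in capitals, written 5′ to 3′ on the strand of the gene.
ACTN1, chr14:68977693-68977772, minus strand: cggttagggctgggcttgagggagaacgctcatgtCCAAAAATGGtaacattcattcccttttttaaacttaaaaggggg
ACTG1, chr17:81512849-81512928, minus strand: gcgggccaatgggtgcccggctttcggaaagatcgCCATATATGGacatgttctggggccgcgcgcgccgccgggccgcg
CNN2, chr19:1026484-1026563, plus strand: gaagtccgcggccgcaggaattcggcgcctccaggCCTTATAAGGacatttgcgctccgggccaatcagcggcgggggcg
TPM4, chr19:16067330-16067409, plus strand: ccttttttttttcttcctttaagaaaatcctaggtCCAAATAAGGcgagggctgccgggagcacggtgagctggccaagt
FLNA, chrX:154374684-154374763, minus strand: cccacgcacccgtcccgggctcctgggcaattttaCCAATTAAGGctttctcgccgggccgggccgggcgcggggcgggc
The boxes began 171, 94, 89, 173 and 94 bases before the start in the order shown. The ACTN1 window also holds an M-CAT element (CATTCC, the site of TEAD factors), which does not overlap its CArG box. M-CAT lay in 15 of 66 windows of the 44 genes (22.7%), against 14.0% of all windows, and the AP-1 site (TGANTCA) in 5 (7.58%), against 7.71%. The palindromic SMAD box was in 0 of the 66 windows and in 0.202% of all. A match is a description of the letters and not of binding.

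Of the 44 genes, 38 had enough UMIs to be tested. Changes are log2 ratios ± SE from edgeR's quasi-likelihood test on the UMIs summed per library, with Benjamini-Hochberg adjustment over the 10465 genes tested, n = 2 libraries per time. At 12 h, 18 of the 38 rose and 0 fell, where 8.46% of all tested genes rose and 5.83% fell. At 24 h, 20 rose and 2 fell (all genes, 7.62% and 5.56%). At 48 h, 19 rose and 4 fell (10.0% and 8.48%), and at 96 h, 22 rose and 4 fell (12.5% and 11.1%). The median change of the 38 was 0.56, 0.58, 0.60 and 0.64 at the 4 times, beside -0.02, -0.01, 0.03 and 0.02 for all genes tested. Every call of the 38 genes had both libraries of the later time above, or both below, the libraries of the earlier one. This was not counted over all genes tested, and with 2 libraries per time it is no support beyond the call itself.

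Persistence differed among the genes. At 96 h, 14 of the 26 calls were kept under every alternative processing tried (TPM1, CALD1, CNN3, TAGLN2, FLNA, VCL, PDLIM5, PDLIM7, TNS1, TNS3, FERMT2, EZR, MSN and RDX). Those that rose at all 4 times from 12 h on were ACTB, ACTN1, ACTN4, CALD1, FERMT2, FLNA, MSN, PDLIM7, PXN, RDX, TNS1, TPM1 and VCL. How many of all genes tested did so was not counted. EZR and TNS3 fell at 3 of the times and PDLIM1 and PDLIM5 at 2. ACTG1, CFL1, LASP1, LIMA1, MYL12A, PARVA and PFN1 passed the threshold at none of them. At 0.5 h edgeR called 0 of the 38, where 0.392% of all genes rose and 0.0478% fell. At that time DESeq2 and limma voom also called 0, and 1 gene, CNN2, had an unadjusted p under 0.05 (0.66 ± 0.31, adjusted p = 1). Between 24 h and 12 h, edgeR, DESeq2 and limma voom each called 0 of the 38, and edgeR called 0% of all genes in either direction. At unadjusted p under 0.05 there were 5 (ACTB, MYL12B, TPM1, TPM2 and PDLIM1). Between 96 h and 24 h, 5 rose and 4 fell, beside 5.07% and 4.31% of all genes.

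**Figure D1:**
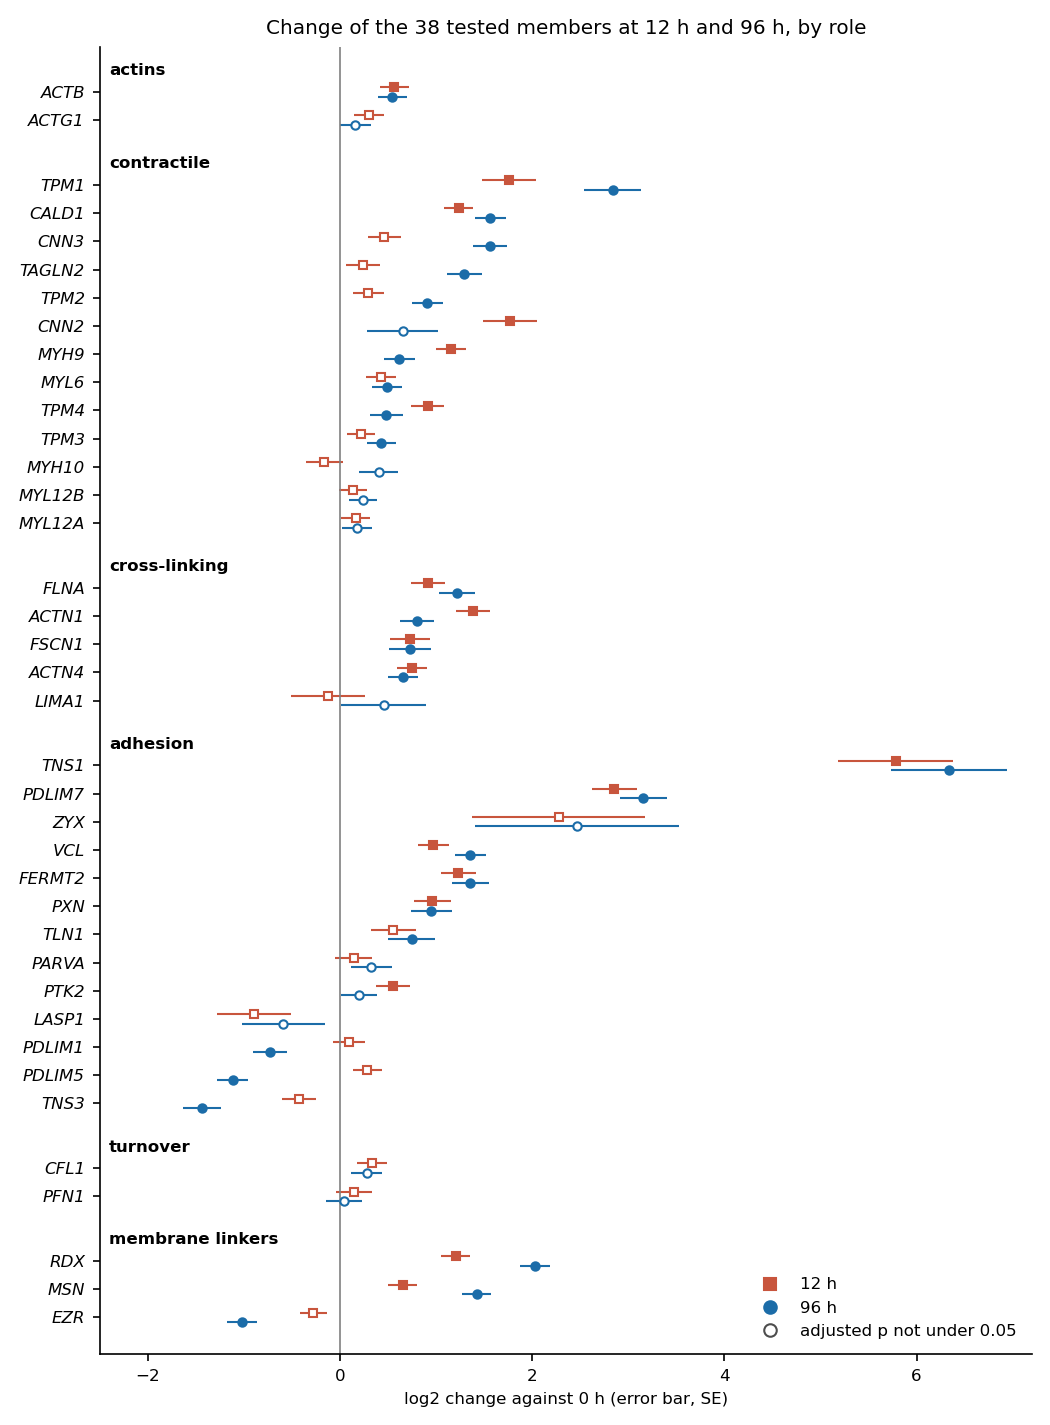
Log2 change against 0 h (x axis, error bar SE) of the 38 tested genes at 12 h (squares) and 96 h (circles), grouped by role, filled where the adjusted p was under 0.05. Cross-linking genes lie to the right of 0 at both times but for LIMA1 at 12 h, while adhesion genes spread from -1.43 to 6.34 at 96 h.

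Compared by role, 4 of 5 cross-linking genes had risen by 12 h (median change 0.75), against 5 of 13 contractile genes (0.42) and 6 of 13 adhesion genes (0.56). Of all genes tested, 8.46% rose at that time. The groups are small, and differences between them were not tested. By 96 h the contractile genes had 9 of 13 risen (median 0.62), the cross-linking genes 4 of 5 (0.73), and the adhesion genes 6 risen and 3 fallen of 13 (0.75). Of all genes tested, 12.5% rose and 11.1% fell then. No contractile or cross-linking gene fell in any comparison with 0 h, where at most 11.1% of all genes tested fell. Together the 44 genes held 2.23% and 2.17% of protein-coding UMIs before TGFβ. The mean was 2.29% ± 0.0265 after 0.5 h, 3.03% ± 0.134 after 12 h, 3.13% ± 0.116 after 24 h, 2.83% ± 0.0874 after 48 h and 2.95% ± 0.00435 after 96 h (SD, n = 2 libraries).

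The role groups took different courses within that sum. Contractile genes held 0.372% ± 0.00130 at 0 h, 0.565% ± 2.06e-04 after 12 h and 0.635% ± 0.00105 after 96 h. Cross-linking genes had their highest mean at 12 h, with 0.0944% ± 9.11e-04 at 0 h, 0.200% ± 0.00584 after 12 h and 0.165% ± 0.00440 after 96 h. Adhesion genes had 0.133% ± 0.00437 at 0 h, 0.178% ± 0.0109 after 12 h, 0.118% ± 0.00878 after 48 h and 0.140% ± 0.00483 after 96 h. The 96 h adhesion libraries (0.137% and 0.144%) both lay above those of 0 h (0.136% and 0.130%), by little. The ratio of 96 h to 0 h was 1.05 for adhesion genes, and it was 0.915 with VCL left out and 1.28 with PDLIM5 left out, so its direction rested on single genes. For contractile genes the ratio was 1.71 (1.53 to 1.85 with any 1 gene left out) and for cross-linking genes 1.74 (1.70 to 1.80). Membrane linkers had the widest range, 2.34 in all, 1.46 without RDX and 3.49 without EZR.

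**Figure D2:**
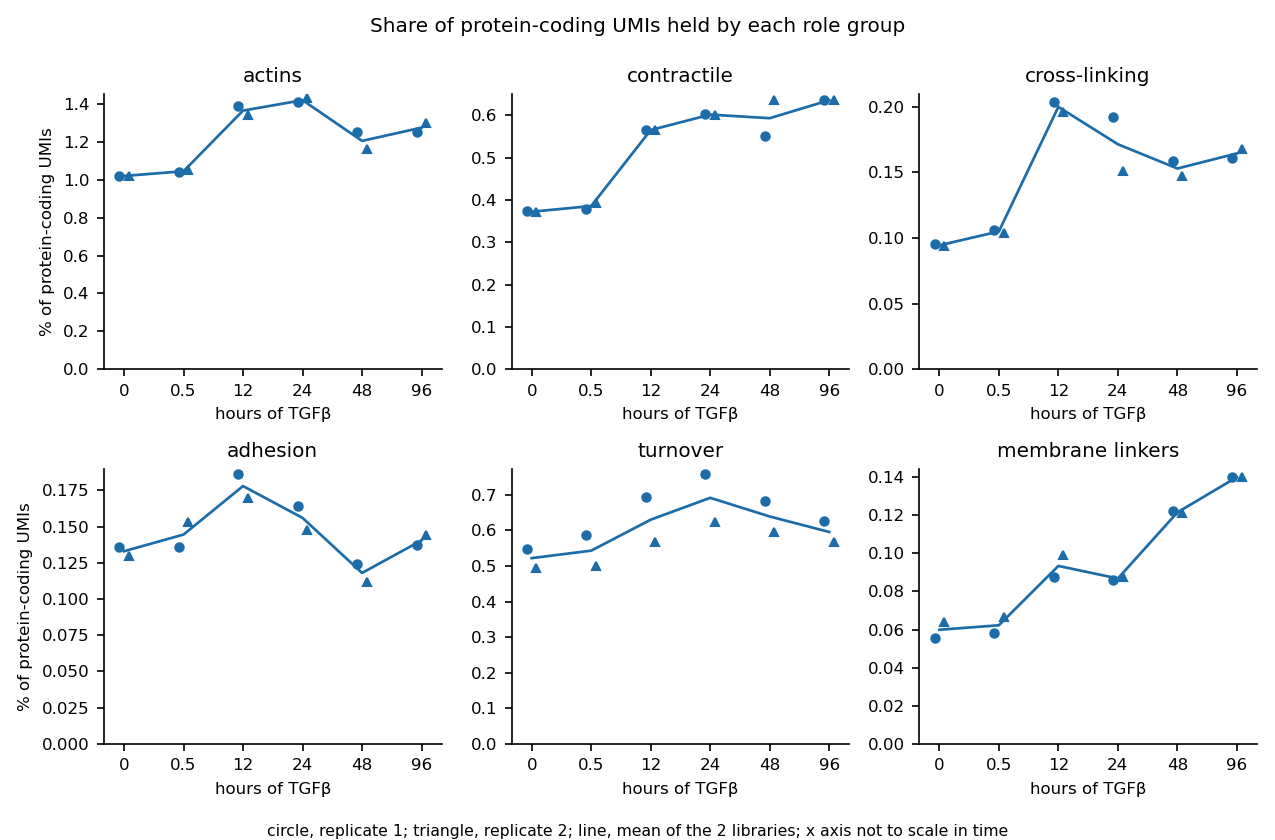
Percentage of protein-coding UMIs (y axis, from 0) held by each role group in each library over hours of TGFβ (x axis, equally spaced), circles replicate 1, triangles replicate 2, line the mean. Cross-linking genes had their highest mean at 12 h and contractile genes at 96 h, while adhesion genes were at 0.133% at 0 h and 0.140% after 96 h.

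Of the 44 genes, ACTG1 had the most UMIs in every library. Each UMI is 1 captured molecule, so levels of different genes need no correction for length. Differences between genes in capture or counting at the 3′ end were not tested, and levels of different genes carry that limit. ACTB, the β-actin of stress fibers and the leading edge, had 3034 and 3416 CPM before TGFβ, 3591 and 3196 after 0.5 h and 5104 and 4435 after 12 h. It then had 5788 and 6217 CPM after 24 h, 5241 and 5195 after 48 h and 4893 and 4510 after 96 h. Both libraries of every time from 12 h on lay above those of 0 h, and the change was 0.56 ± 0.15 (adjusted p = 0.0116) at 12 h, 0.90 ± 0.15 (adjusted p = 0.000133) at 24 h and 0.54 ± 0.15 (adjusted p = 0.0103) at 96 h. Its paralogue ACTG1, the γ-actin of the cortex, had 7694 and 6494 CPM before TGFβ, 6651 and 7111 after 0.5 h and 8980 and 8517 after 12 h. Later libraries had 8726 and 8283 CPM after 24 h, 7698 and 6437 after 48 h and 7387 and 8483 after 96 h. Its libraries at 48 h and 96 h overlapped those of 0 h, and no change passed the threshold at any time, with values of 0.30 ± 0.16 (adjusted p = 0.226) at 12 h and 0.16 ± 0.16 (adjusted p = 0.508) at 96 h. ACTB made up 31.4% ± 4.37 of actin UMIs at 0 h, 41.4% ± 2.12 after 24 h and 37.3% ± 3.63 after 96 h. The ACTB call at 12 h was lost without replicate 1 of 0 h (adjusted p = 0.12) or replicate 1 of 12 h (0.149), and that at 96 h without replicate 1 of 0 h (adjusted p = 0.109) or replicate 1 of 96 h (0.116).

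The genes that mark smooth muscle and myofibroblasts were hardly detected at any time. ACTA2, the α-actin of smooth muscle, had at most 2 UMIs in any library, 1 and 2 at 96 h and 0 and 1 at 0 h. TAGLN, the smooth muscle protein SM22, had 1 and 9 UMIs at 96 h, against 0 and 0 at 0 h. The 9 UMIs lay in 8 cells of replicate 2, and the other 11 libraries had at most 3. CNN1, the smooth muscle calponin, had 0 UMIs in both libraries of 0 h and of 96 h, 4 and 1 after 12 h, and 5 and 1 after 24 h. MYL9, a regulatory light chain of smooth muscle and non-muscle myosin, had at most 5 UMIs per library. FLNC, the muscle filamin, had at most 2, and ILK, a pseudokinase at integrin tails, at most 4. These 6 genes were too low to be tested. In GENCODE 44 the last 500 bases of ACTA2, TAGLN and ILK overlap another gene, as do those of MYL12A, CNN2, ACTN4, ZYX, PXN and LASP1. The strand setting of the counting is not given in the sources used here, and the part of such overlap in the low counts was not tested.

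Tropomyosins wrap along the filament and govern which myosins and severing proteins reach it. TPM1, the contractile gene with the highest change at 96 h (chromosome 15, 63042620 to 63071915, plus strand, 10 exons in the canonical transcript) had 99.1 and 133 CPM before TGFβ, 131 and 144 after 0.5 h and 332 and 454 after 12 h. Its level was next 523 and 791 CPM after 24 h, 659.7 and 1166 after 48 h and 765 and 895 after 96 h. Every library from 12 h on was far above both of 0 h. Its log2 ratio to 0 h was 1.76 ± 0.28 (adjusted p = 0.001) at 12 h, 2.97 ± 0.29 (adjusted p = 1.04e-05) at 48 h and 2.84 ± 0.29 (adjusted p = 1.38e-05) at 96 h. TPM2 had no call at 12 h (0.30 ± 0.16, adjusted p = 0.25) and reached 1.16 ± 0.16 (adjusted p = 7.22e-06) at 48 h and 0.91 ± 0.16 (adjusted p = 0.000184) at 96 h. TPM4, whose promoter window holds a CArG box, had 617 and 560.3 CPM before TGFβ, 504 and 722 after 0.5 h and 1196 and 1020 after 12 h. This was followed by 1239 and 1034 CPM after 24 h, 827 and 701 after 48 h and 887 and 762 after 96 h. Its highest libraries were those of 12 h and 24 h. Its log2 change was 0.91 ± 0.17 (adjusted p = 0.000505) at 12 h, 0.95 ± 0.17 (adjusted p = 0.00031) at 24 h and 0.48 ± 0.17 (adjusted p = 0.0447) at 96 h. TPM3 had 228 and 283 CPM before TGFβ, 259 and 239 after 0.5 h and 284 and 309.7 after 12 h. It later had 346 and 367 CPM after 24 h, 319 and 324 after 48 h and 344 and 345 after 96 h, all later than 0.5 h above 0 h. The fitted change was 0.48 ± 0.14 (adjusted p = 0.0257) at 24 h and 0.43 ± 0.15 (adjusted p = 0.0344) at 96 h. Within the tropomyosin UMIs, TPM1 held 10.3% ± 1.72 at 0 h, 19.6% ± 4.42 after 12 h, 37.8% ± 10.5 after 48 h and 35.8% ± 4.08 after 96 h, while TPM4 held 52.3% ± 5.69, 55.3% ± 5.96, 32.6% ± 7.70 and 35.6% ± 3.72 at the same times. The 2 replicates of 48 h were apart, TPM1 at 30.4% and 45.2%. The TPM3 call was lost at 24 h without replicate 1 of 24 h (adjusted p = 0.0701), replicate 2 of 24 h (0.117) or replicate 1 of 0 h (0.312) and at 96 h without replicate 1 of 0.5 h (adjusted p = 0.051), replicate 2 of 0.5 h (0.0517), replicate 1 of 96 h (0.138), replicate 2 of 96 h (0.16) or replicate 1 of 0 h (0.329). The 96 h call of TPM4 was lost without replicate 1 of 12 h (adjusted p = 0.0512), replicate 2 of 96 h (0.0908), replicate 1 of 0 h (0.105), replicate 2 of 0 h (0.236) or replicate 1 of 96 h (0.303), and its 12 h and 24 h calls were not lost without any 1 library.

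Myosin II is the motor of contraction, 1 heavy chain gene for each isoform with shared light chains. MYH9, the heavy chain of myosin IIA, had 177 and 163 CPM before TGFβ, 174 and 184 after 0.5 h and 410.1 and 349.9 after 12 h. Thereafter it had 433 and 362 CPM after 24 h, 258 and 198 after 48 h and 269.9 and 253 after 96 h. It was highest at 12 h and 24 h. The log2 change was 1.16 ± 0.16 (adjusted p = 7.44e-06) at 12 h, 1.23 ± 0.16 (adjusted p = 3.51e-06) at 24 h and 0.62 ± 0.16 (adjusted p = 0.00621) at 96 h, and it fell between 96 h and 24 h (-0.61 ± 0.16, adjusted p = 0.0152). MYH10, the heavy chain of myosin IIB, was called at 48 h alone, with 58.2 and 48.0 CPM at 48 h, against 33.7 and 37.6 CPM at 0 h (0.58 ± 0.19, adjusted p = 0.0344). MYH9 made up 82.6% ± 1.97 of their summed UMIs at 0 h, 92.2% ± 0.629 after 12 h, 81.1% ± 0.780 after 48 h and 84.8% ± 2.80 after 96 h. The essential light chain MYL6 rose at 48 h (0.51 ± 0.15, adjusted p = 0.0231) and 96 h (0.49 ± 0.15, adjusted p = 0.0242). Of the regulatory light chains, MYL12B rose at 24 h alone (0.50 ± 0.14, adjusted p = 0.0201) and MYL12A had no call (0.18 ± 0.15, adjusted p = 0.448 at 96 h). The MYH9 call at 96 h against 0 h was lost without replicate 2 of 0 h (adjusted p = 0.0704) or replicate 1 of 96 h (0.0724), and that between 96 h and 24 h without replicate 1 of 96 h (adjusted p = 0.0705), replicate 2 of 96 h (0.139) or replicate 1 of 24 h (0.168). MYH10 at 48 h lost its call without replicate 2 of 0 h (adjusted p = 0.0856), replicate 1 of 0 h (0.21) or replicate 1 of 48 h (0.267), and MYL12B at 24 h without replicate 1 of 24 h (adjusted p = 0.0515), replicate 2 of 24 h (0.103) or replicate 1 of 0 h (0.193). For MYL6 the 48 h call was lost without replicate 1 of 48 h (adjusted p = 0.0606), replicate 2 of 48 h (0.109) or replicate 2 of 0 h (0.308) and the 96 h call without replicate 1 of 96 h (adjusted p = 0.0854), replicate 2 of 96 h (0.178) or replicate 2 of 0 h (0.306).

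Caldesmon, calponins and transgelins bind along actin and restrain or stabilise it. CALD1, caldesmon, had 106 and 95.8 CPM before TGFβ, 88.3 and 106 after 0.5 h and 230.0 and 246 after 12 h. The other libraries had 214 and 223 CPM after 24 h, 191 and 235 after 48 h and 280.0 and 318 after 96 h. Its later libraries were all above those of 0 h and 0.5 h. Relative to 0 h the change was 1.24 ± 0.15 (adjusted p = 2.2e-06) at 12 h and 1.57 ± 0.16 (adjusted p = 4.32e-08) at 96 h. CNN3, the acidic calponin, had 98.3 and 110.0 CPM before TGFβ, 123 and 107 after 0.5 h and 137 and 151 after 12 h. It then had 129 and 154 CPM after 24 h, 209.7 and 315 after 48 h and 320.5 and 293 after 96 h. It was late, without a call at 12 h (0.46 ± 0.17, adjusted p = 0.0777) or 24 h (0.43 ± 0.17, adjusted p = 0.111) and with 1.32 ± 0.17 (adjusted p = 3.37e-06) at 48 h and 1.56 ± 0.18 (adjusted p = 3.24e-07) at 96 h. TAGLN2, the transgelin of non-muscle cells, had 142 and 157 CPM before TGFβ, 175 and 149 after 0.5 h and 162 and 191 after 12 h. Later libraries had 179.8 and 225 CPM after 24 h, 203 and 309 after 48 h and 361 and 371 after 96 h. It too rose late. The test gave 0.77 ± 0.18 (adjusted p = 0.00297) at 48 h and 1.29 ± 0.18 (adjusted p = 7.44e-06) at 96 h. Both rose again between 96 h and 24 h, CNN3 by 1.12 ± 0.17 (adjusted p = 9.9e-05) and TAGLN2 by 0.86 ± 0.18 (adjusted p = 0.00239). TAGLN2 lost its 48 h call without replicate 1 of 0 h (adjusted p = 0.0522) or replicate 2 of 48 h (0.139) and its call between 96 h and 24 h without replicate 1 of 24 h (adjusted p = 0.0563).

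CNN2, the neutral calponin and another gene with a CArG box, was early where CNN3 was late. It had 5.20 and 7.53 CPM before TGFβ, 9.01 and 10.9 after 0.5 h and 20.4 and 23.1 after 12 h. Its level was next 19.3 and 24.5 CPM after 24 h, 10.7 and 10.3 after 48 h and 7.78 and 12.0 after 96 h. The 12 h and 24 h libraries stood above all others. The change was 1.77 ± 0.28 (adjusted p = 5.55e-05) at 12 h and 1.76 ± 0.28 (adjusted p = 6.59e-05) at 24 h. At 96 h it no longer passed against 0 h (0.66 ± 0.37, adjusted p = 0.22), and it was lower at 96 h than at 24 h (-1.11 ± 0.32, adjusted p = 0.026). That last call was lost without replicate 2 of 96 h (adjusted p = 0.0572), replicate 2 of 24 h (0.11) or replicate 1 of 96 h (0.218).

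**Figure D3:**
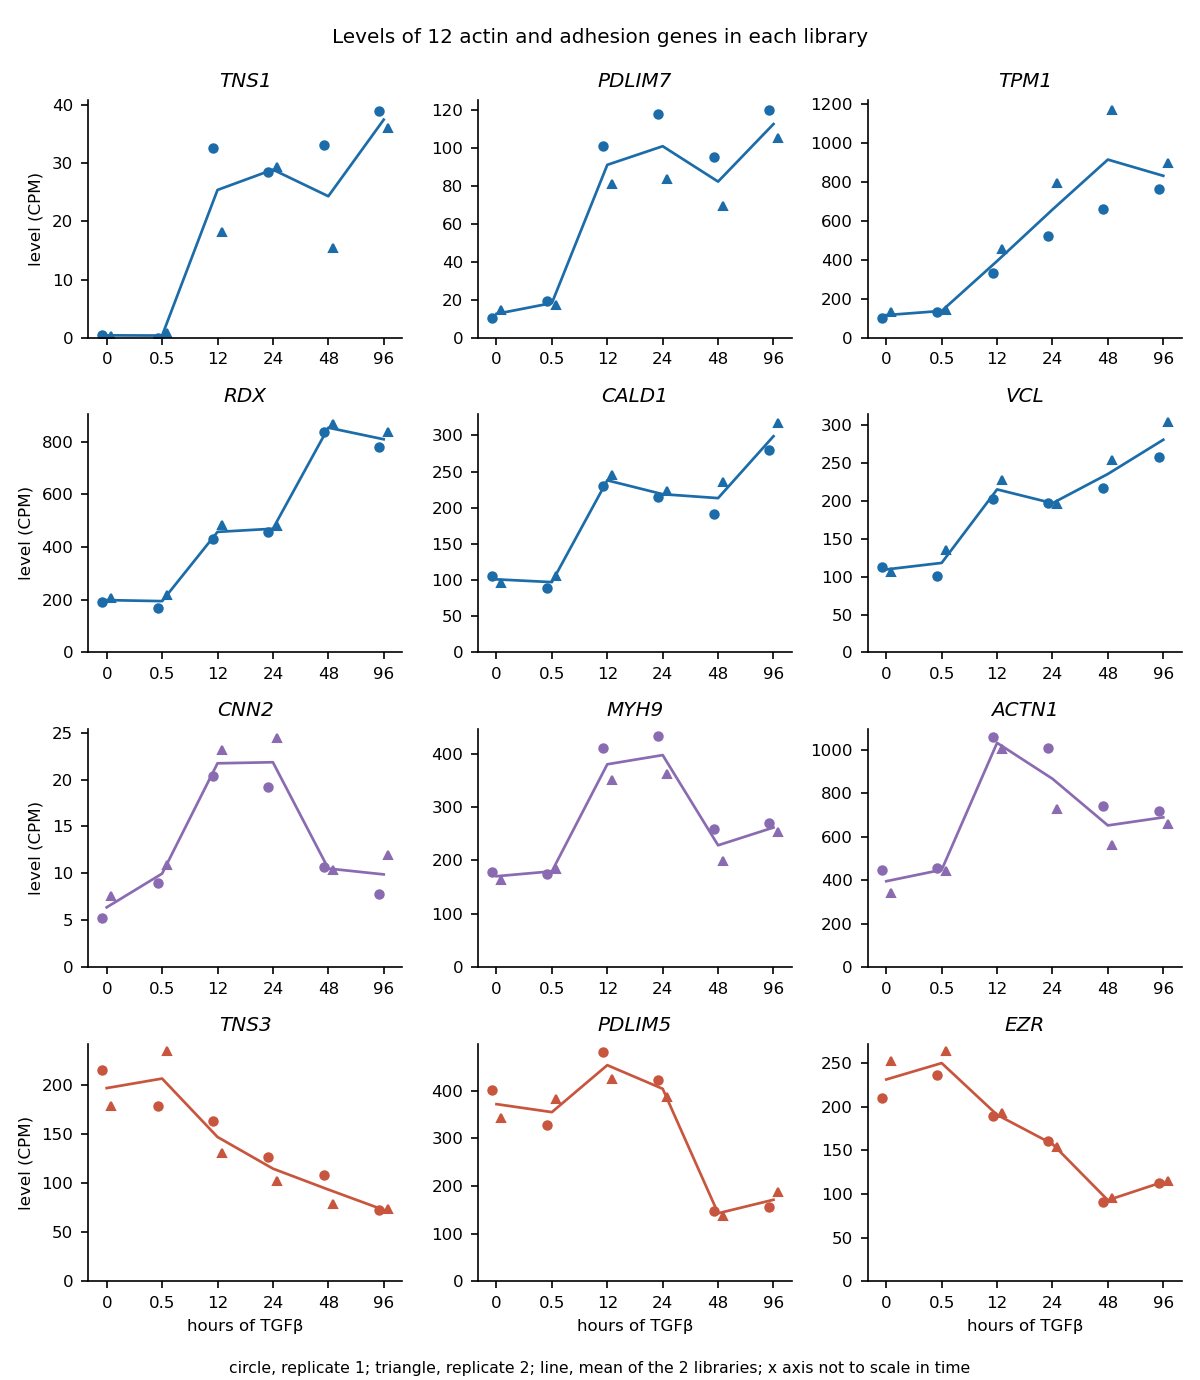
Level in CPM (y axis, from 0) of 12 genes in each library over hours of TGFβ (x axis, equally spaced), circles replicate 1, triangles replicate 2, line the mean. The genes in the first 2 rows stay above 0 h from 12 h on, CNN2, MYH9 and ACTN1 are highest at 12 h or 24 h, and TNS3, PDLIM5 and EZR end below 0 h.

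Cross-linkers join filaments into bundles and networks. ACTN1, the α-actinin of stress fibers and adhesions, had 448 and 342 CPM before TGFβ, 454 and 441 after 0.5 h and 1061 and 1005 after 12 h. This was followed by 1008 and 727 CPM after 24 h, 744 and 561 after 48 h and 718 and 661 after 96 h. It was highest at 12 h. It changed by 1.39 ± 0.18 (adjusted p = 3.37e-06) at 12 h, 1.14 ± 0.18 (adjusted p = 4.65e-05) at 24 h and 0.80 ± 0.18 (adjusted p = 0.00155) at 96 h, and the difference between 96 h and 24 h did not pass (-0.33 ± 0.17, adjusted p = 0.267). Its paralogue ACTN4 had 246 and 305 CPM before TGFβ, 254 and 280.1 after 0.5 h and 469 and 457 after 12 h. It later had 459 and 425 CPM after 24 h, 419 and 541 after 48 h and 397 and 471 after 96 h. All its libraries from 12 h on were above 0 h. Its log2 change was 0.75 ± 0.16 (adjusted p = 0.00164) at 12 h and 0.66 ± 0.16 (adjusted p = 0.00388) at 96 h. FLNA, filamin A, which makes orthogonal networks and binds integrin tails, had 56.1 and 59.6 CPM before TGFβ, 72.1 and 53.3 after 0.5 h and 96.5 and 122 after 12 h. Thereafter it had 107 and 103 CPM after 24 h, 86.9 and 92.3 after 48 h and 115 and 154 after 96 h. It rose by 0.92 ± 0.18 (adjusted p = 0.000737) at 12 h and 1.22 ± 0.19 (adjusted p = 2.44e-05) at 96 h. FSCN1, fascin, which packs the filaments of filopodia, had 242 and 198 CPM before TGFβ, 259 and 235 after 0.5 h and 432 and 298 after 12 h. The other libraries had 400.0 and 259 CPM after 24 h, 392 and 284 after 48 h and 348 and 381 after 96 h. It rose by 0.73 ± 0.21 (adjusted p = 0.0243) at 12 h and 0.73 ± 0.21 (adjusted p = 0.0185) at 96 h, and at 24 h it did not pass (0.59 ± 0.21, adjusted p = 0.0767). LIMA1, the bundling protein EPLIN, had at most 8.15 CPM and no call. 

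Several of these calls rested on single libraries. At 12 h, ACTN4 lost its call without replicate 1 of 0 h (adjusted p = 0.0565) and FSCN1 without replicate 1 of 0 h (adjusted p = 0.0546), replicate 2 of 0 h (0.211) or replicate 1 of 12 h (0.308). ACTN4 lost it at 24 h without replicate 1 of 0 h (adjusted p = 0.106) and at 96 h without replicate 1 of 0 h (adjusted p = 0.0904) or replicate 2 of 96 h (0.101). At 48 h the call was lost for ACTN1 without replicate 1 of 48 h (adjusted p = 0.0978) or replicate 2 of 0 h (0.12) and for FLNA without replicate 2 of 0 h (adjusted p = 0.0777), replicate 2 of 48 h (0.0881) or replicate 1 of 0 h (0.126). The 96 h call of ACTN1 was lost without replicate 2 of 0 h (adjusted p = 0.0579) and that of FSCN1 without replicate 1 of 96 h (adjusted p = 0.0637), replicate 2 of 96 h (0.142) or replicate 2 of 0 h (0.167). The 48 h call of FSCN1 was the weakest of its calls, lost without any of 7 libraries (adjusted p = 0.0709 to 0.332: 0 h replicates 1 and 2, 0.5 h replicates 1 and 2, 48 h replicate 1, 96 h replicates 1 and 2). The 12 h and 24 h calls of ACTN1 and the 12 h, 24 h and 96 h calls of FLNA were not lost without any 1 library.

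The adhesion genes held both the steepest rises and most of the falls. TNS1, tensin 1, which ties integrin tails to actin in mature fibrillar adhesions, lies on chromosome 2 (217799588 to 218033982, minus strand, 33 exons). It had 2 and 1 UMIs before TGFβ, 0 and 3 after 0.5 h and 128 and 69 after 12 h. Later it had 124 and 79 UMIs after 24 h, 99 and 30 after 48 h, and 50 and 54 after 96 h. As levels these were 0.548 and 0.290 CPM before TGFβ, 0 and 0.762 after 0.5 h and 32.6 and 18.1 after 12 h. It then had 28.4 and 29.3 CPM after 24 h, 33.1 and 15.5 after 48 h and 38.9 and 36.0 after 96 h. The groups did not overlap from 12 h on. With 3 UMIs at 0 h the fold is uncertain, and the ratio of summed counts was 61.8 at 12 h, with an exact 95% interval of 20.8 to 302 for counting error only. It was 67.2 at 24 h (22.7 to 329) and 61.2 at 48 h (20.5 to 301). In the fit the changes were 5.78 ± 0.60 (adjusted p = 7.89e-07) at 12 h and 6.34 ± 0.61 (adjusted p = 1.56e-07) at 96 h.

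TNS3, another tensin, ran the other way. It had 215 and 178 CPM before TGFβ, 179 and 234 after 0.5 h and 164 and 130.3 after 12 h. Later libraries had 127 and 103 CPM after 24 h, 108 and 78.9 after 48 h and 72.3 and 73.2 after 96 h. Its libraries lay below both of 0 h at every time from 12 h on. The fitted change was -0.77 ± 0.18 (adjusted p = 0.00392) at 24 h, -1.06 ± 0.18 (adjusted p = 0.000147) at 48 h and -1.43 ± 0.20 (adjusted p = 6.45e-06) at 96 h, and it fell further between 96 h and 24 h (-0.66 ± 0.20, adjusted p = 0.0379). TNS1 made up 0.208% ± 0.0647 of the UMIs of these tensins at 0 h, 14.4% ± 3.12 after 12 h and 33.9% ± 1.44 after 96 h. TNS3 thus remained the more abundant of them in every library, with at least 65.0% of the sum. The TNS3 call at 24 h was lost without replicate 1 of 0 h (adjusted p = 0.0862) or replicate 2 of 24 h (0.0874) and that between 96 h and 24 h without replicate 1 of 96 h (adjusted p = 0.167), replicate 2 of 96 h (0.179) or replicate 1 of 24 h (0.261), while those at 48 h and 96 h were not lost without any 1 library.

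The PDZ and LIM domain genes split in the same manner. PDLIM7 (enigma, chromosome 5, 177483394 to 177497606, minus strand), an adaptor that docks on tropomyosin and α-actinin, had 10.4 and 14.8 CPM before TGFβ, 19.5 and 17.0 after 0.5 h and 101 and 81.2 after 12 h. Its level was next 118 and 83.7 CPM after 24 h, 95.3 and 69.1 after 48 h and 119.8 and 105 after 96 h. Every library from 12 h on was far above both of 0 h. Its log2 ratio to 0 h was 2.85 ± 0.23 (adjusted p = 3.58e-09) at 12 h, 3.01 ± 0.23 (adjusted p = 1.37e-09) at 24 h and 3.16 ± 0.24 (adjusted p = 6.41e-10) at 96 h. PDLIM5, which binds α-actinin at stress fibers, had 402 and 342 CPM before TGFβ, 327 and 383 after 0.5 h and 482 and 425 after 12 h. This was followed by 422 and 386 CPM after 24 h, 149 and 137 after 48 h and 156 and 187 after 96 h. It had no call through 24 h and then dropped. The log2 change was -1.38 ± 0.16 (adjusted p = 4.08e-07) at 48 h, -1.11 ± 0.16 (adjusted p = 8.94e-06) at 96 h and -1.24 ± 0.16 (adjusted p = 9.17e-06) between 96 h and 24 h. PDLIM1, an α-actinin partner of stress fibers, had 308 and 253 CPM before TGFβ, 312 and 326 after 0.5 h and 336 and 263 after 12 h. It later had 265 and 186 CPM after 24 h, 192 and 168 after 48 h and 172 and 168 after 96 h. Its fall was smaller, with -0.64 ± 0.17 (adjusted p = 0.00985) at 48 h and -0.72 ± 0.18 (adjusted p = 0.0038) at 96 h. PDLIM7 took 1.93% ± 0.692 of the UMIs of the 3 genes at 0 h, 10.8% ± 0.303 after 12 h and 24.8% ± 2.77 after 96 h, and PDLIM5 took 55.9% ± 0.245, 53.9% ± 2.02 and 37.7% ± 4.16. The PDLIM1 call was lost at 48 h without replicate 2 of 48 h (adjusted p = 0.0998) or replicate 1 of 0 h (0.138) and at 96 h without replicate 2 of 96 h (adjusted p = 0.0513) or replicate 1 of 0 h (0.0635).

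**Figure D4:**
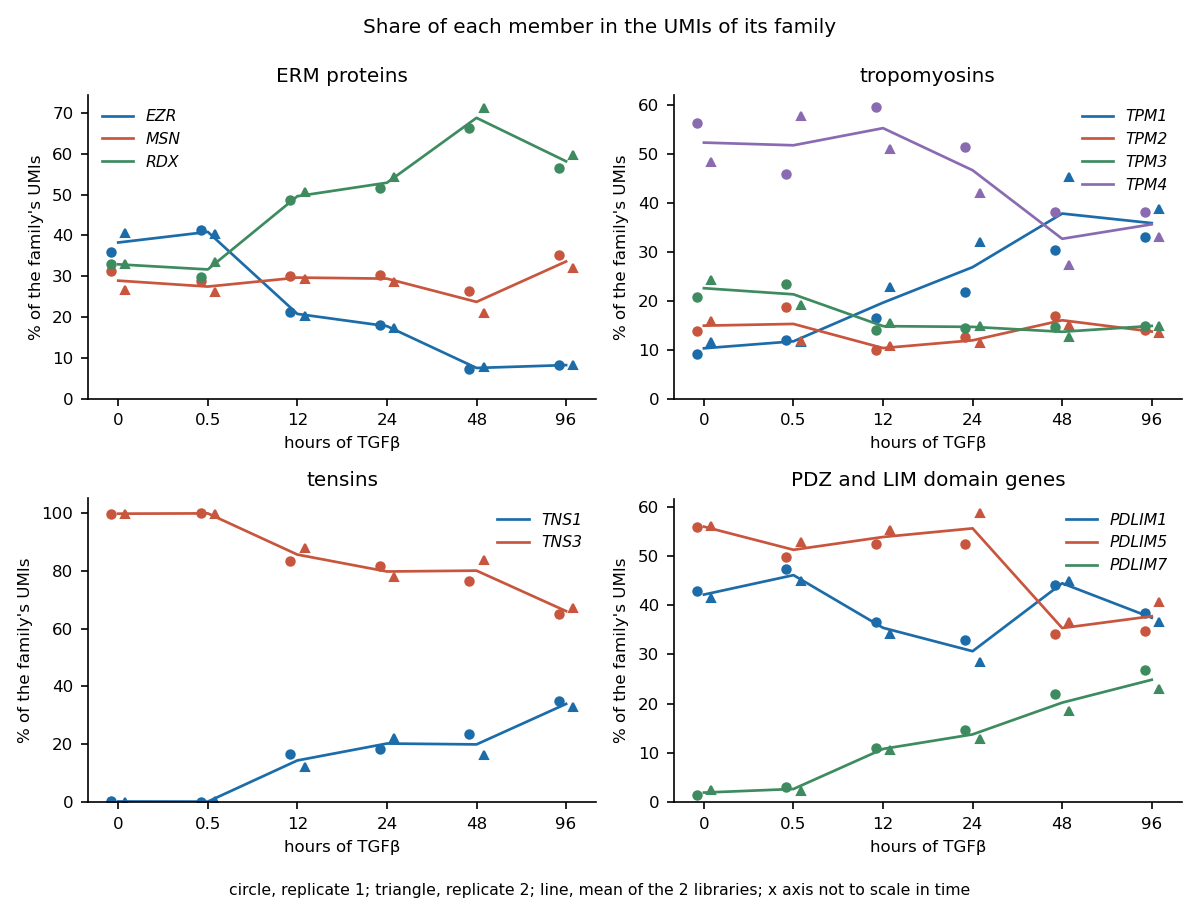
Share of each gene in the UMIs of its family (y axis, percent, from 0) in each library over hours of TGFβ (x axis, equally spaced), circles replicate 1, triangles replicate 2, line the mean. Between 0 h and 96 h RDX, TPM1, TNS1 and PDLIM7 gain share, and EZR, TPM4, TNS3 and PDLIM5 lose it.

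Further adhesion proteins sit between integrin and filament. VCL, vinculin, which reinforces adhesions under load, had 113 and 106 CPM before TGFβ, 101 and 135 after 0.5 h and 203 and 228 after 12 h. Thereafter it had 198 and 196 CPM after 24 h, 217 and 254 after 48 h and 257 and 304 after 96 h. It was above 0 h in every library from 12 h on. Relative to 0 h the change was 0.97 ± 0.16 (adjusted p = 9.22e-05) at 12 h and 1.36 ± 0.16 (adjusted p = 7.57e-07) at 96 h. Between 96 h and 24 h it rose by 0.51 ± 0.16 (adjusted p = 0.043). FERMT2, kindlin 2, which activates integrins together with talin, had 28.7 and 29.8 CPM before TGFβ, 29.1 and 30.7 after 0.5 h and 67.5 and 70.4 after 12 h. The other libraries had 61.2 and 63.0 CPM after 24 h, 50.8 and 68.1 after 48 h and 70.8 and 79.2 after 96 h. It rose by 1.23 ± 0.18 (adjusted p = 2.28e-05) at 12 h and 1.36 ± 0.19 (adjusted p = 8.94e-06) at 96 h. PXN, paxillin, a scaffold of young adhesions, rose by 0.96 ± 0.20 (adjusted p = 0.00107) at 12 h, 1.23 ± 0.20 (adjusted p = 6.37e-05) at 24 h and 0.95 ± 0.21 (adjusted p = 0.00168) at 96 h. TLN1, talin, rose at 96 h alone (0.75 ± 0.24, adjusted p = 0.0376), with 208 and 206 CPM at 96 h, against 131 and 116 CPM at 0 h. The VCL call between 96 h and 24 h was lost without any of 9 libraries, all but both of 0.5 h and 48 h replicate 1 (adjusted p = 0.051 to 0.395). The PXN call was lost at 48 h without replicate 1 of 0 h (adjusted p = 0.0711) and at 96 h without replicate 1 of 96 h (adjusted p = 0.0623). The TLN1 call was lost without any of 6 libraries, both of 0 h, 0.5 h and 96 h (adjusted p = 0.065 to 0.202).

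The remaining adhesion genes had 1 call or none. PTK2, focal adhesion kinase, had 98.8 and 73.0 CPM before TGFβ, 86.5 and 93.2 after 0.5 h and 133 and 119 after 12 h. It then had 113 and 112 CPM after 24 h, 101 and 69.6 after 48 h and 103 and 95.2 after 96 h. It passed at 12 h alone (0.55 ± 0.18, adjusted p = 0.0349), a call lost without replicate 1 of 12 h (adjusted p = 0.234) or replicate 2 of 0 h (0.351). ZYX, zyxin, a sensor of filament strain, had 3 UMIs in all at 0 h and 24 at 24 h, a ratio of summed counts of 7.95 (exact 95% interval 2.41 to 41.2). ZYX passed at 24 h alone (2.83 ± 0.85, adjusted p = 0.026), where 21 of the 24 UMIs came from replicate 1, and the call was lost without replicate 2 of 0 h (adjusted p = 0.0968), replicate 1 of 0 h (0.226) or replicate 1 of 24 h (0.64). LASP1, a LIM and SH3 adaptor, and PARVA, parvin α, a partner of the integrin-bound pseudokinase, had no call. The test gave -0.59 ± 0.43 (adjusted p = 0.379) and 0.33 ± 0.21 (adjusted p = 0.291) at 96 h.

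Ezrin, moesin and radixin (the ERM proteins) tether the actin cortex to the plasma membrane, ezrin being the form typical of epithelia. EZR had 209 and 253 CPM before TGFβ, 236 and 264 after 0.5 h and 189 and 193 after 12 h. Later libraries had 161 and 154 CPM after 24 h, 90.6 and 95.4 after 48 h and 113 and 115 after 96 h. It fell by 24 h and stayed low. The change was -0.55 ± 0.14 (adjusted p = 0.00941) at 24 h, -1.31 ± 0.15 (adjusted p = 4.24e-07) at 48 h and -1.02 ± 0.15 (adjusted p = 1.91e-05) at 96 h. RDX, radixin (chromosome 11, 109864295 to 110296712, minus strand, 14 exons), had 192 and 205 CPM before TGFβ, 170.0 and 219 after 0.5 h and 431 and 483 after 12 h. Its level was next 458 and 479.9 CPM after 24 h, 837 and 868 after 48 h and 779 and 838 after 96 h. It rose in steps. It changed by 1.21 ± 0.15 (adjusted p = 2.59e-06) at 12 h, 2.10 ± 0.15 (adjusted p = 2.81e-10) at 48 h, 2.03 ± 0.15 (adjusted p = 4.93e-10) at 96 h and 0.79 ± 0.15 (adjusted p = 0.000942) between 96 h and 24 h. MSN, moesin, had 182 and 166 CPM before TGFβ, 165 and 169.7 after 0.5 h and 267 and 279 after 12 h. This was followed by 269 and 252 CPM after 24 h, 332 and 256 after 48 h and 486 and 447 after 96 h. Its change was 0.65 ± 0.15 (adjusted p = 0.00327) at 12 h, 1.42 ± 0.15 (adjusted p = 1.2e-07) at 96 h and 0.84 ± 0.15 (adjusted p = 0.000484) between 96 h and 24 h.

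EZR thus made up 38.2% ± 3.29 of ERM UMIs at 0 h, 20.7% ± 0.789 after 12 h, 7.51% ± 0.444 after 48 h and 8.21% ± 0.0335 after 96 h. RDX made up 32.9% ± 0.00756, 49.6% ± 1.41, 68.8% ± 3.34 and 58.2% ± 2.33 at the same times. The EZR call at 24 h was lost without replicate 2 of 24 h (adjusted p = 0.103) or replicate 2 of 0 h (0.121). The MSN call was lost at 12 h without replicate 2 of 0 h (adjusted p = 0.0544) and at 24 h without replicate 1 of 24 h (adjusted p = 0.0738) or replicate 2 of 0 h (0.098). The calls of RDX at all 4 times, and those of EZR and MSN at 48 h and 96 h, were not lost without any 1 library.

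The abundant turnover genes CFL1 (cofilin, which severs filaments) and PFN1 (profilin, which feeds monomers to growing ends) had no call at any time. CFL1 had 3016 and 2994 CPM at 96 h, against 2600 and 2348 CPM at 0 h (0.28 ± 0.16, adjusted p = 0.229). PFN1 had 3134 and 2669 CPM at 96 h, against 3156 and 2455 CPM at 0 h (0.05 ± 0.19, adjusted p = 0.889), and these libraries overlapped.

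Cells were then examined singly, to see how widely the changes were shared, each thinned to 1 common number of UMIs that 1684 of the 1871 cells reached. In the median cell the 44 genes held 2.94% and 2.94% of protein-coding UMIs in the 96 h libraries, against 2.24% and 2.14% at 0 h. The 10th percentile of 96 h cells (2.54% and 2.49%) lay just under the 90th percentile of 0 h cells (2.63% and 2.60%). For contractile genes the 10th percentile at 96 h (0.514% and 0.466%) was about the 90th at 0 h (0.480% and 0.468%). For membrane linkers the 10th percentile at 96 h (0.0822% and 0.0887%) lay under the 90th at 0 h (0.0879% and 0.0998%). Between cells of 1 library, ACTB and ACTG1 counts correlated at a median r of 0.301 (0.0530 to 0.430 over 12 libraries), and TPM1 and RDX, which both rose, at -0.0154 (-0.147 to 0.153).

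Shares of cells with a UMI followed the sums. TNS1 was seen in 0 of 175 and 1 of 157 cells at 0 h (0%, exact interval up to 2.09%, and 0.637%, 0.0161% to 3.50%), in 29.2% and 19.3% of cells at 12 h and in 31.4% and 38.1% after 96 h. PDLIM7 was seen in 12.6% and 15.9% of cells at 0 h, 64.0% and 62.0% after 12 h and 70.6% and 60.3% after 96 h. FERMT2 was seen in 25.7% and 22.9% at 0 h and in 52.9% and 55.6% after 96 h. For each of these 3 genes the libraries of 12 h and 96 h lay above those of 0 h. CNN2 was seen in 5.14% and 7.01% at 0 h, 17.4% and 26.6% after 12 h, and 5.88% and 19.0% after 96 h. All cells here are A549, so no cell type without these genes was at hand, and the 2187 wells with under 1000 detected genes (median 975 UMIs, against 21419 in kept cells) gave the background. TNS1 was seen in 1.83% of these wells, PDLIM7 in 5.12%, FERMT2 in 5.72% and CNN2 in 9.51%, the highest share of the genes named. These wells were pooled over all times and held far fewer UMIs than the thinned cells, so they are not a matched floor for any time. Without thinning, TNS1 was seen in 22.1% of the 1871 kept cells, PDLIM7 in 56%, FERMT2 in 57.1% and CNN2 in 23.6%. The CNN2 shares at 0 h, in 48 h replicate 1 (9.30%) and in 96 h replicate 1, and the TNS1 shares at 0 h, lay under this background and are not read as expression. Wells with as many UMIs as the thinned cells could show higher shares. The other shares of the 4 genes, those of CNN2 at 12 h among them, are therefore not shown to clear the background.

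**Figure D5:**
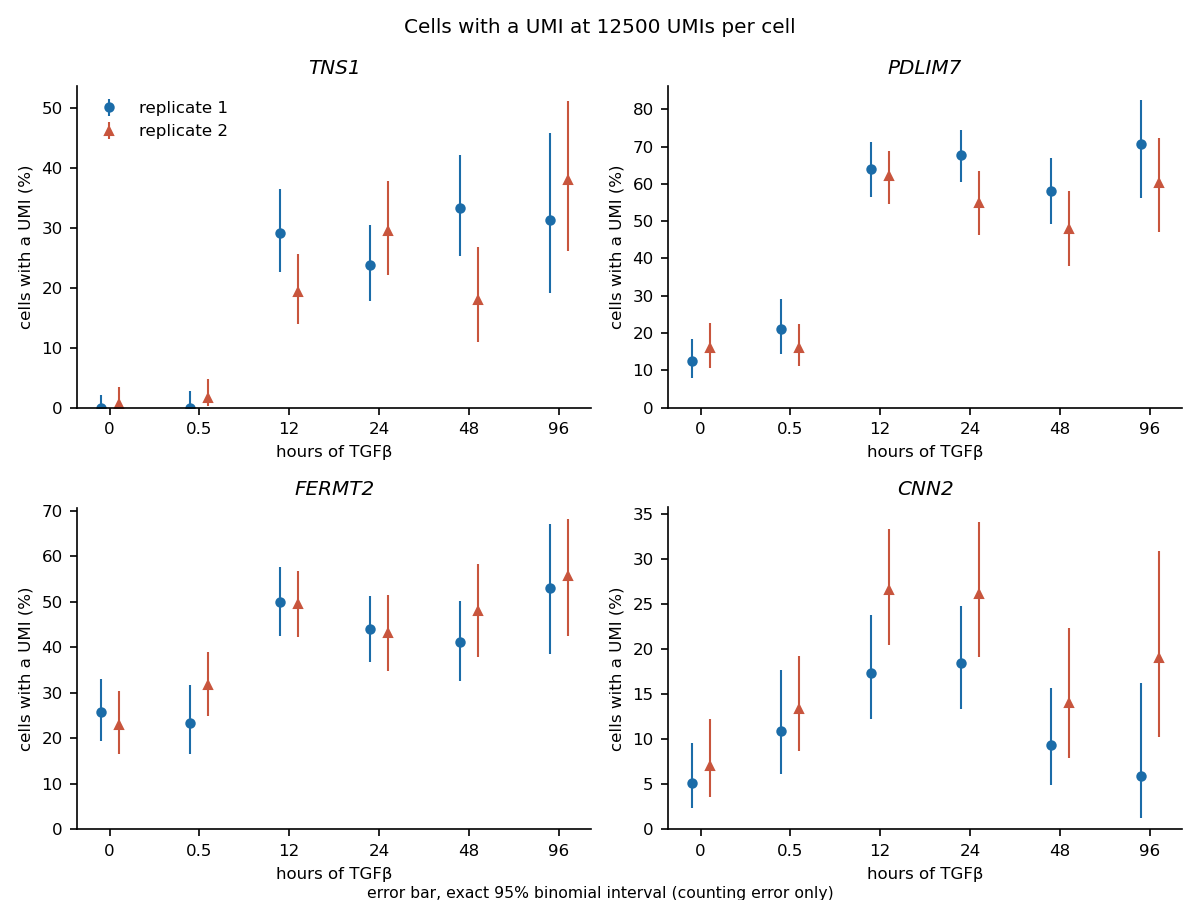
Percentage of cells with at least 1 UMI (y axis, from 0, error bar the exact 95% binomial interval, counting error only) of TNS1, PDLIM7, FERMT2 and CNN2 in each library, cells thinned to 1 depth, over hours of TGFβ (x axis, equally spaced). TNS1 is at 0% and 0.637% at 0 h and at 31.4% and 38.1% after 96 h, and the mean of CNN2 is highest at 12 h and 24 h.

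Beyond the 44 genes, the transcription factor that reads the CArG box was followed with its coactivators. SRF rose early. Its log2 change was 1.52 ± 0.22 (adjusted p = 1.6e-05) at 12 h and 0.81 ± 0.23 (adjusted p = 0.0155) at 24 h, and no longer passed at 96 h (0.67 ± 0.26, adjusted p = 0.0612). Its coactivator MRTFA rose from 24 h on, reaching 1.35 ± 0.30 (adjusted p = 0.00198) at 48 h and 1.11 ± 0.34 (adjusted p = 0.0172) at 96 h. MRTFB rose at 12 h alone (0.68 ± 0.23, adjusted p = 0.0451).

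Regulators of myosin, cofilin and filament assembly, like SRF, MRTFA and MRTFB, are described as single genes of a list whose counts are not given here. MYLK, myosin light chain kinase, fell at 12 h (-1.27 ± 0.32, adjusted p = 0.00823) and 96 h (-1.14 ± 0.40, adjusted p = 0.039); its mean at 0 h was 17.6 CPM. DAAM1, a formin of the planar polarity pathway, rose by 2.02 ± 0.22 (adjusted p = 2.67e-07) at 12 h and 1.47 ± 0.25 (adjusted p = 9.23e-05) at 96 h. LIMK2, a kinase that inactivates cofilin, rose by 2.47 ± 0.51 (adjusted p = 0.000816) at 96 h, and PPP1R14B, an inhibitor of myosin phosphatase, by 0.85 ± 0.15 (adjusted p = 0.000167).

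Of 31 genes of filament branching, capping and monomer binding, 29 were tested, and 8 rose and 1 fell at 12 h (median 0.25), beside 8.46% and 5.83% of all genes. At 24 h, 6 rose and 1 fell (0.12, beside 7.62% and 5.56%), and at 48 h 2 rose and 0 fell (-0.03, beside 10.0% and 8.48%). At 96 h, 6 rose and 1 fell (0.12, beside 12.5% and 11.1%). TMSB10, thymosin β10, which sequesters actin monomers, rose late, with 4242 CPM ± 433 at 96 h, against 2004 CPM ± 331 at 0 h (1.08 ± 0.17, adjusted p = 2.79e-05). Its paralogue TMSB4X had no call (-0.04 ± 0.16, adjusted p = 0.893). CAP1, which recycles monomers, rose by 0.94 ± 0.14 (adjusted p = 2.3e-05) at 12 h and 0.81 ± 0.14 (adjusted p = 0.000114) at 96 h. VASP, which elongates filaments at adhesions, rose by 0.91 ± 0.18 (adjusted p = 0.00104) at 12 h and 0.84 ± 0.20 (adjusted p = 0.00291) at 96 h. At 96 h CTTN, cortactin, changed by 1.34 ± 0.39 (adjusted p = 0.0163), SPTAN1, the α chain of spectrin, by 0.73 ± 0.21 (adjusted p = 0.0132) and CFL2, the muscle cofilin, by -0.87 ± 0.17 (adjusted p = 0.000484). The calls of these genes outside the 44 were not recomputed without single libraries.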

How the data were processed

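Single A549 cells negative for propidium iodide were sorted into 384 wells per library and made into CEL-Seq2 libraries. The deposited table holds UMI counts of each well as whole numbers, without normalization by the authors. Their processing notes name GRCh38 and the tools HISAT2 2.2.1, Trim Galore 0.6.7, UMI-tools and featureCounts 2.0.1. Annotation release and strand setting: not given in the sources used here. Counts at the 3′ end do not separate isoforms. The 44 genes and all lists were chosen with earlier results of these data known, and the named genes follow a rule by size of change and threshold. The counts of the list that holds SRF, MRTFA, MRTFB, MYLK, DAAM1, LIMK2 and PPP1R14B are not reported here.

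Wells were kept at 100 to 40000 UMIs, 2000 to 7000 genes and at most 35% mitochondrial counts, the limits in the methods of the study. They left 1871 cells here, fewer than the study gives. No doublet caller was run, since cells were sorted singly. Within each library, the kept cells' counts of 15871 protein-coding genes were added up (1264044 to 4500036 UMIs) and tested with edgeR 4.0.16 in R 4.3.3 (TMM scaling, filterByExpr, robust quasi-likelihood fit, a mean per time over 12 libraries, 6 residual degrees of freedom), with Benjamini-Hochberg adjusted p under 0.05 for each of 7 comparisons. CPM uses TMM scaling, and SE is the change over the square root of F. Comparisons with 0 h share its libraries. Alternatives used DESeq2 1.42.0, limma 3.58.1, other scalings, filters, wells and depths, and each library left out. Exact binomial intervals cover counting error only. The fit was checked on simulated data. Positions are from GENCODE 44 and promoters from RefSeq (GRCh38.p14). Protein sequences were not analysed here. Python 3.11.15 with numpy 2.4.6, scipy 1.17.1, pandas 2.3.3 and matplotlib 3.10.9 was used.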

Additional observations from a re-analysis of the deposited data

How the results depend on the processing

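Counts are of the 38 tested genes called, with 18, 22, 23 and 26 at 12 h, 24 h, 48 h and 96 h against 0 h, and 9 between 96 h and 24 h. A test against a change of 1.5 times left 10, 10, 11, 14 and 2, and stricter limits on wells (206 cells) left 11, 11 and 15 at 12 h to 48 h and 3 between 96 h and 24 h. Cells thinned to 1 depth left 5 between 96 h and 24 h. Between 24 h and 12 h, 0 became 1 without a filter on low counts and 1 with a replicate block. Leaving out 1 library gave 15 to 20, 18 to 24, 17 to 23, 19 to 27 and 5 to 10. Of the calls, 9 of 18, 8 of 22, 11 of 23, 14 of 26 and 1 of 9 (CNN3) were kept under every alternative. No called change reversed. Uncalled changes were followed at 12 h and 96 h against 0 h alone, and 7 of them reversed: PFN1 at 96 h (-0.011 without a filter), MYH10 and PDLIM5 at 12 h (0.122 and -0.208 with stricter wells), LIMA1 at 12 h (0.712 with sums thinned), and, without 1 library, LIMA1 at 12 h (-0.273 to 0.033), PDLIM1 at 12 h (-0.097 to 0.290), PFN1 at 12 h (-0.092 to 0.387) and 96 h (-0.153 to 0.230), and PTK2 at 96 h (-0.031 to 0.427).

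The replicate numbers were not taken to pair the libraries, since 6 of 15 correlations of same-numbered deviations were over 0.1 (range -0.0926 to 0.275). The number equals the barcode set, so a shared effect of it is possible and is not in the fit used, and with the replicate block the calls were 21, 27, 25, 26 and 12. The UMI share of the 44 genes at 0 h to 96 h was 1.98%, 2.06%, 2.74%, 2.82%, 2.52% and 2.63% over all genes of the table; with stricter wells it was 2.35%, 2.42%, 3.25% and 3.43% at 0 h to 24 h and 3.05% at 96 h, and 2.94% at 96 h with thinned cells. The ratio of 96 h to 0 h with 1 gene left out was 1.14 to 1.48 for actins, 1.53 to 1.85 for contractile, up to 1.80 for cross-linking, 0.915 to 1.28 for adhesion, up to 1.24 for turnover and 1.46 to 3.49 for membrane linkers. A CArG box lay in 1.16% of all windows without the 50 bases after the start. The causes of these differences were not tested. Protein identity between paralogues was planned and not run. Precision is lowest at 96 h, with 54 and 64 cells.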
